A study of Homo sapiens with 70 samples.

Results

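The comparison described here set Huh7 cells given both drugs against the Huh7 group labelled GW3965. It drew on 17 of the 70 libraries of the study, chosen by the deposited group labels: 9 libraries of Huh7 treated for 24 h with 5 µM GW3965 plus 2 µM sorafenib, and 8 libraries labelled as Huh7 treated with 5 µM GW3965 alone. Huh7 is an established human hepatocellular carcinoma line. The line also had 9 libraries labelled 2 µM sorafenib and 8 of the vehicle DMSO, and a second hepatocellular carcinoma line, Hep3B, had the same 4 treatments with 9 libraries each. The labels do not say whether libraries came from separate cultures, so p-values may measure technical spread. Of 20090 genes in the authors' tables, 11496 were measured at a mean of at least 1 log2 CPM (2 CPM) over the comparison and were tested. The other 8594 lay below that minimum.

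The authors' deposited tables compare each drug group with DMSO as a log2 fold change, and hold no value of a single library, so depth per library is unknown and the spread between replicates enters only through the authors' p-values. The fold change of the group labelled GW3965 was subtracted from that of both drugs, so that the shared DMSO group cancels. A difference below is this log2 value, both drugs minus labelled GW3965. Each was tested with an approximate normal test whose standard error (SE) came from the deposited p-values, and a gene was called at a Benjamini-Hochberg adjusted p under 0.05 over all genes tested. A group level in CPM is the one implied by the authors' mean log2 CPM and fold changes, and has no replicate error of its own. In whole cultures, fewer cells of a state and less RNA per cell cannot be told apart.

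GW3965 is a small molecule that activates the oxysterol-sensing liver X receptors (LXR), which switch on genes for sterol efflux (ABCG1, ABCA1) and, through SREBF1, fatty acid synthesis. Sorafenib inhibits RAF kinases and several receptor tyrosine kinases, and a fall of the feedback genes DUSP6, SPRY4 and EGR1 is a common readout of blocked ERK signalling. Sorafenib is also known to engage the integrated stress response, in which phosphorylation of the translation factor eIF2α raises the transcription factor ATF4 and its targets for amino acid supply.

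The data go against the label of the single-drug group. In the authors' deposited table for the Huh7 group labelled GW3965, ABCG1 stood at 0.75 and ABCA1 at 0.28 (log2 against DMSO, FDR 7.54e-06 and 0.064), with SREBF1 at -0.07 and FASN at 0.12. In the authors' deposited table for Huh7 labelled sorafenib, the same genes stood at 3.82, 1.30, 1.63 and 1.39. The ERK feedback genes showed the opposite split in the authors' deposited tables: DUSP6 at -1.70 and EGR1 at -2.61 in the group labelled GW3965, against -0.02 and -0.41 in the group labelled sorafenib. Groups are therefore called by their labels throughout, every direction below is relative to the group labelled GW3965, and Hep3B is given for both of its contrasts, both drugs minus sorafenib and both drugs minus GW3965. No single-library value that could bear on the labels was used here.

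Of the 11496 genes tested, 2340 (20.4%) rose and 1105 (9.61%) fell with both drugs. Each count of called genes in a list below, unless given after centring, is to be read beside these shares. The median difference over all genes was 0.11 (quartiles -0.14 and 0.35), and the DMSO level implied by the separately normalized tables was offset by -0.05, so differences hold up to a constant shared by all genes. With that median subtracted, 1437 genes rose and 1663 fell, so the share of calls that were rises was 46.4% after centring, against 67.9% before. A list count given after centring is to be read beside these 1437 and 1663 of the 11496 genes tested. No called gene changed sign, and 2542 of the 3445 calls (30.0% of genes tested) remained. Changes of at least 2-fold were called for 298 genes higher and 180 lower, or 210 and 258 after centring, and changes of at least 4-fold for 30 and 17.

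The largest rises and falls are given among called genes at a mean of at least 2 log2 CPM. HKDC1, a hexokinase-related enzyme, was at 29.9 CPM with both drugs against 2.16 CPM in the group labelled GW3965, a difference of 3.79 (SE 0.54, approximate test, adjusted p = 1.53e-10). ABCG1, which exports cholesterol from cells, was at 59.9 CPM with both drugs against 4.88 CPM in the group labelled GW3965, a difference of 3.62 (SE 0.19). CD44, a hyaluronan receptor, rose by 3.08 (SE 0.34), to 50.2 CPM against 5.94 CPM. The histone deacetylase HDAC9 rose by 3.03, ATF3 by 2.72 and the clock repressor BHLHE40 by 2.70, the last to 101 CPM against 15.6 CPM. ANXA1, FAM129A, THSD4 and the actin crosslinker FLNC rose by 2.39 to 2.68, and ALPK3 at 2.28 was the first gene outside the 12 highest at that minimum.

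ABCG1 apart, the genes named here stood between -0.32 (HDAC9) and 0.66 (ATF3) in the authors' deposited table for the group labelled sorafenib (log2 against DMSO). ATF3 stood there at 0.66 and BHLHE40 at 0.55, while both drugs gave 3.93 and 3.50 in the authors' deposited table. ABCG1 stood at 4.37 with both drugs and 3.82 in the group labelled sorafenib in the authors' deposited tables.

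The 12 largest falls were taken at the same minimum of 2 log2 CPM. HP, the haemoglobin scavenger haptoglobin, was at 1.06 CPM with both drugs against 8.85 CPM in the group labelled GW3965, a difference of -3.07 (SE 0.24, approximate test, adjusted p = 2.11e-35). GSTA1, a glutathione transferase, was at 1.82 CPM with both drugs against 11.7 CPM in the group labelled GW3965, a difference of -2.69 (SE 0.23). HP has a close copy, HPR, and GSTA1 has GSTA2, so the counting of their reads is uncertain. MBL2, the mannose-binding lectin of complement, fell by 2.37 and ARG1, the last enzyme of the urea cycle, by 2.05. CPB2, a plasma carboxypeptidase that slows clot lysis, fell by 2.17. DKK1, a secreted Wnt antagonist, fell by 2.08. MBOAT4, HSD17B2, ATP2B2, CNIH2, CCR6 and SPTLC3 made up the 12, at -2.27 to -1.99, and DGKK at -1.94 was the first gene outside at that minimum. With both drugs all 12 lay below each of the other Huh7 groups.

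**Figure D1:**
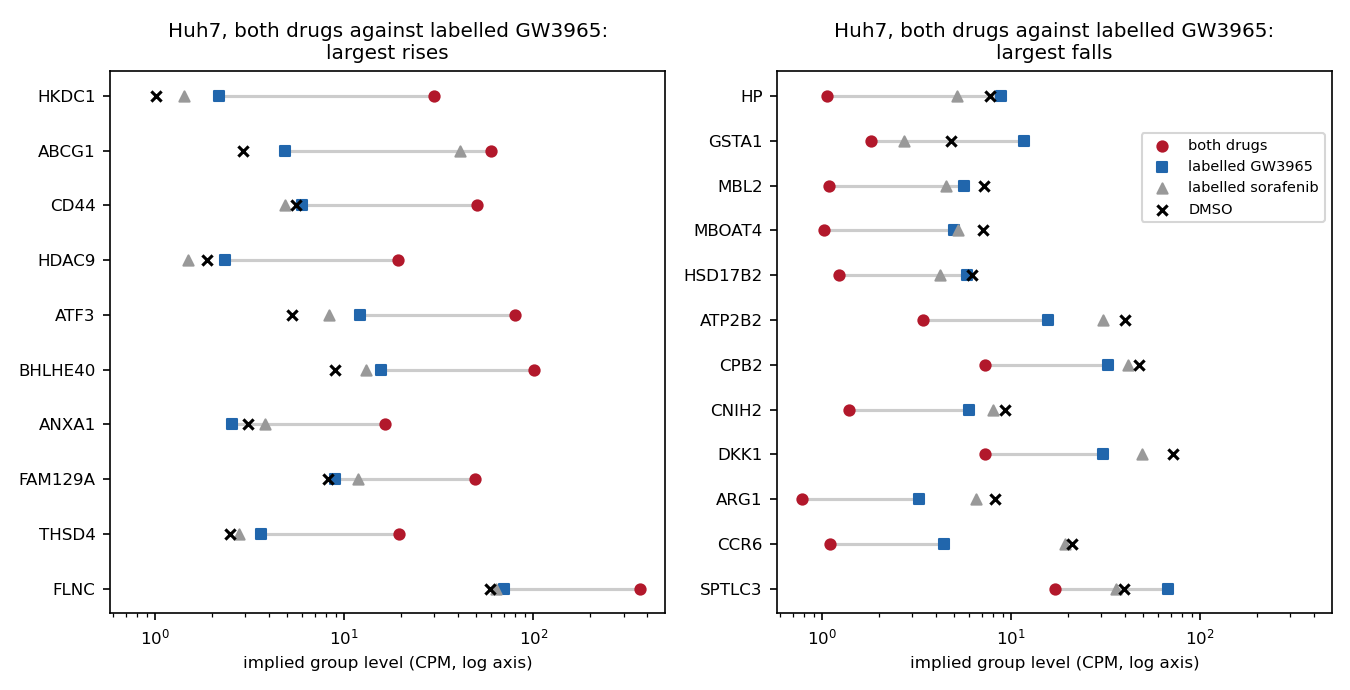
Implied group level in CPM (log axis) of 10 of the 12 largest rises (left) and the 12 largest falls (right) at a mean of at least 2 log2 CPM, with both drugs (circles), in the groups labelled GW3965 (squares) and sorafenib (triangles) and with DMSO (crosses); no error is drawn because the tables hold none for a group level. For 9 of these 10 rises the triangle lies left of the circle and nearer the cross, and ABCG1 is the exception.

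LXR target genes rose in part. Of 19 tested members of the sterol efflux and LXR list, 9 rose and 3 fell, with a median difference of 0.48 against 0.11 for all genes. ABCA1, which loads cholesterol onto apolipoprotein A-I, was at 390 CPM with both drugs against 126 CPM in the group labelled GW3965, a difference of 1.63 (SE 0.16, approximate test, adjusted p = 4.77e-22). FASN, the fatty acid synthase, rose by 1.34 (SE 0.21), to 3022 CPM against 1196 CPM. SREBF1 rose by 0.88, MYLIP, a ubiquitin ligase, by 0.80 and SCD, a fatty acid desaturase, by 0.74 (SE 0.13, 0.21 and 0.15). MLXIPL, the glucose-sensing factor ChREBP, fell by 1.04 (SE 0.31), and ABCG5 at -0.35 and APOE at -0.21 were not called. Against DMSO, the authors' deposited tables gave SREBF1 0.81 with both drugs and 1.63 in the group labelled sorafenib, a gap that was not tested.

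Lipid synthesis rose at selected steps. In fatty acid synthesis 8 of 18 tested genes rose and 0 fell (median 0.34). ACSL3, which activates fatty acids, rose by 1.20 and ACACA, which makes malonyl-CoA, by 0.88 (SE 0.15 and 0.14), while the desaturases FADS1 and FADS2 were both at a difference of 0.00 and were not called. In triglyceride synthesis and lipid droplets 2 of 13 rose and 3 fell (15.4% and 23.1%, beside 20.4% and 9.61% of all genes tested). LPIN1, a phosphatidate phosphatase, rose by 1.41 and the droplet coat gene PLIN2 by 0.63. DGAT1 and DGAT2, which add the last acyl chain, fell by 0.60 and 0.44. CIDEB, named after its value was seen, fell by 0.44. Of 15 genes of fatty acid oxidation 0 rose and 3 fell, among them SLC25A20 (-0.78), which carries acylcarnitines, and EHHADH (-0.57). After centring 7 of these 15 fell.

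Cholesterol synthesis moved little and uptake moved more. In the mevalonate pathway 4 of 21 genes rose and 1 fell (median 0.17). These were 19.0% and 4.76%, beside 20.4% and 9.61% of all genes tested. SQLE rose by 0.53 and GGPS1 by 0.49, and TM7SF2 fell by 0.77. SC5D, named after its value was seen, rose by 0.44. HMGCS1, the HMG-CoA synthase, was at 841 CPM with both drugs against 733 CPM in the group labelled GW3965, a difference of 0.20 (SE 0.19) that was not called (approximate test, adjusted p = 0.443). After centring 3 genes rose and 3 fell. In uptake and sterol sensing 8 of 16 rose and 3 fell (4 and 3 after centring). NPC1, which exports cholesterol from lysosomes, rose by 1.09 and INSIG1, which retains the sterol sensor SCAP in the endoplasmic reticulum, by 0.88.

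The integrated stress response had the highest median of the gene lists. Of 20 tested members 19 rose and 1 fell, with a median difference of 1.36 against 0.11 for all genes, and 18 rose after centring. ATF3, a factor induced by ATF4, was at 80.0 CPM with both drugs against 12.1 CPM in the group labelled GW3965, a difference of 2.72 (SE 0.32, approximate test, adjusted p = 1.08e-14). TRIB3, a pseudokinase that restrains ATF4, was at 570 CPM with both drugs against 118 CPM in the group labelled GW3965, a difference of 2.27 (SE 0.25). PPP1R15A, which returns eIF2α to its unphosphorylated form, rose by 2.11 and GDF15, a secreted stress cytokine, by 1.98 (SE 0.19 and 0.14). ASNS, the asparagine synthetase, rose by 1.60, DDIT3, the death-associated factor CHOP, by 1.53 and CHAC1, which degrades glutathione, by 1.39 (SE 0.28, 0.37 and 0.31). ATF5, a further member of the ATF family that was named after its value was seen, fell by 0.57.

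Both single-drug groups already stood above DMSO for these genes. In the authors' deposited tables the list median was 2.39 with both drugs, 0.62 in the group labelled sorafenib and 1.14 in the group labelled GW3965 (log2 against DMSO). CHAC1 stood at 3.46 with both drugs, 2.15 in the group labelled sorafenib and 2.07 in the group labelled GW3965 in the authors' deposited tables. GDF15 differed from this: the authors' deposited tables gave 1.98 with both drugs, -0.14 in the group labelled sorafenib and 0.00 in the group labelled GW3965.

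The promoters of ATF3, ASNS and CHAC1 are shown because, of 18 called members with a RefSeq promoter, these 3 held the C/EBP-ATF element TGATGNAA, on either strand, within 250 bases before the start. The element was present in 1.29% of the 9317 promoters matched to tested genes and in 3.19% of all 27305 promoters of the RefSeq table (GRCh38.p14). Capitals mark the element, which lies on the opposite strand in CHAC1. The windows are chr1:212565157-212565406 (plus strand) for ATF3, chr7:97872409-97872658 (minus strand) for ASNS and chr15:40953221-40953470 (plus strand) for CHAC1, each written 5′ to 3′ along its gene.
ATF3: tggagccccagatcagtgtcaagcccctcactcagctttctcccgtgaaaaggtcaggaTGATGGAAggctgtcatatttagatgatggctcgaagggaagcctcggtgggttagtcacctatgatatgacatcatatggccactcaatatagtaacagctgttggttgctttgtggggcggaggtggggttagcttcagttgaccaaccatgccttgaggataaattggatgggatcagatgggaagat
ASNS: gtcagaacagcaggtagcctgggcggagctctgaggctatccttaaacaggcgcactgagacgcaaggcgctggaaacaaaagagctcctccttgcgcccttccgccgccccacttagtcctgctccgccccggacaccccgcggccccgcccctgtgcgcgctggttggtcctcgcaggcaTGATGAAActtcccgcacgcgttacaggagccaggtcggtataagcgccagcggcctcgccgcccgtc
CHAC1: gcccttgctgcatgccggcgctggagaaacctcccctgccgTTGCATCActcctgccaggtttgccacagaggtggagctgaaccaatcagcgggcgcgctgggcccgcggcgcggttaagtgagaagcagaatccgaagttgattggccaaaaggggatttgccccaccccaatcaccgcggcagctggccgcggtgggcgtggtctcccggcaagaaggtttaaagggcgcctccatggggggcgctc
The element began 191, 68 and 209 bases before the start in ATF3, ASNS and CHAC1. It was also found in 2 of 9 promoters of called tRNA synthetases (AARS and IARS) and in 0 of 9 of called amino acid transporters. Of called rises in serine, glycine and one-carbon synthesis, 2 of 5 promoters held it (ASNS again and MTHFD1L). A match of letters is not a binding site.

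Genes that supply amino acids rose alongside. Of 15 amino acid transporters 11 rose and 1 fell (median 0.92; 8 rose after centring). SLC7A1, an arginine importer, was at 162 CPM with both drugs against 46.1 CPM in the group labelled GW3965, a difference of 1.81 (SE 0.16, approximate test, adjusted p = 9.3e-28). SLC3A2, the heavy chain shared by several transporters, rose by 1.40, SLC7A11, the cystine importer, by 1.13 and SLC1A4 by 1.10, and SLC38A4, named after its value was seen, fell by 0.49. Of 20 cytosolic aminoacyl-tRNA synthetases 16 rose and 0 fell (median 0.65; 12 after centring), led by GARS (0.94), SARS (0.93), CARS (0.91) and LARS (0.83). The synthetases had a median of 0.76 against DMSO with both drugs and of -0.01 in the group labelled GW3965, in the authors' deposited tables. In serine, glycine and one-carbon synthesis 9 of 17 rose and 1 fell, among them the mitochondrial folate enzymes MTHFD2 (1.62), ALDH1L2 (1.38) and MTHFD1L (1.34), and ALDH18A1, named after its value was seen, fell by 0.45. PHGDH, the first enzyme of serine synthesis, was at 0.43 and was not called.

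Other stress programmes moved less or in both directions. Of 23 endoplasmic reticulum chaperone and unfolded protein genes 9 rose and 2 fell (6 and 5 after centring). ERN1, the stress sensor IRE1, rose by 1.49 (SE 0.23), and the chaperone-associated genes CRELD2 and SDF2L1 fell by 0.78 and 0.75. HSPA5, the chaperone BiP, was at 656 CPM with both drugs against 548 CPM in the group labelled GW3965 and was not called (0.26, SE 0.20, approximate test, adjusted p = 0.33). Of 16 cytosolic heat shock genes 2 rose, HSPB8 (1.58) and HSF1 (0.48), and 2 fell, HSPE1 (-0.52) and HSPA1A (-0.55). Each was 12.5% of the list, while 20.4% of all genes tested rose and 9.61% fell. HSPA1A has the near-identical copy HSPA1B and lost its call when all transcripts of a gene were averaged or no expression minimum was set. Among 19 genes made up of NFE2L2, which encodes the transcription factor NRF2, and NRF2 targets, 7 rose and 3 fell. OSGIN1 by 1.66, SRXN1 by 1.45 and TXNRD1 by 0.93 were rises. HMOX1 (-0.67), AKR1C1 (-0.77) and NFE2L2 itself (-0.40), all 3 named after their values were seen, fell. Of 11 metallothionein and zinc genes 4 rose (2 after centring), among them MT1H (1.03) and MT1G (0.92), and MT2A was not called (0.21, SE 0.14). The metallothionein genes are near-identical copies, so their counts are uncertain.

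ERK output genes mostly did not pass the test, while most tested immediate early genes rose. Of 15 tested ERK output genes 2 rose, DUSP4 (1.28, SE 0.24) and SPRED1 (0.82, SE 0.15), and 0 fell. The rises were 13.3% of the list, beside 20.4% of all genes tested. DUSP6, a phosphatase that switches ERK off, was at 26.7 CPM with both drugs against 26.4 CPM in the group labelled GW3965, a difference of 0.02 with a 95% interval of -0.59 to 0.63. SPRY4 at 0.38, EGR1 at -0.16 and CCND1, cyclin D1, at 0.12 were not called (SE 0.42, 0.44 and 0.14). Against DMSO, DUSP6 stood at -1.68 with both drugs, -0.02 in the group labelled sorafenib and -1.70 in the group labelled GW3965 in the authors' deposited tables. Of 15 tested members of the list of immediate early genes and MYC, which also holds EGR1, 11 rose and 1 fell (median 0.83). FOS, FOSB, EGR2 and EGR3 lay below the expression minimum and were not tested. MYC, a growth regulator, was at 164 CPM with both drugs against 43.5 CPM in the group labelled GW3965, a difference of 1.91 (SE 0.18, approximate test, adjusted p = 1.63e-23). KLF4 rose by 2.19, FOSL2 by 1.55 and CYR61 by 1.53, and KLF2, named after its value was seen, fell by 1.05.

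DNA replication genes fell, and mitotic genes mostly did not pass the test. Of 26 replication genes 15 fell and 1 rose, with a median of -0.60, and 19 fell after centring. UHRF1, which guides maintenance methylation, was at 10.1 CPM with both drugs against 31.0 CPM in the group labelled GW3965, a difference of -1.62 (SE 0.25, approximate test, adjusted p = 6.31e-09). RRM2, a ribonucleotide reductase subunit, fell by 1.47, GINS2 by 0.98 and the helicase subunit MCM6 by 0.94, and RFC4, named after its value was seen, rose by 0.41. CCNE1, cyclin E1, was at -0.27 and was not called. Of 20 mitosis genes 6 fell and 0 rose (median -0.16), among them NUSAP1 (-0.80), KIF20A (-0.75), MKI67 (-0.64) and CENPE (-0.58), while CDK1 at 0.03 and CCNB1 at -0.18 were not called. Among 16 G1 regulators CDKN2B and CDKN1A, inhibitors of cyclin-dependent kinases, rose by 2.05 and 1.24, the last at 3.63 CPM against 1.54 CPM, and E2F2 and the inhibitor CDKN2C fell by 1.62 and 1.54. The rise of CDKN1A and the fall of MKI67 did not pass at an adjusted p under 0.01.

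The cell death genes called before centring all rose. Of 11 BCL2 family genes 6 rose and 0 fell, but 2 rose and 1 fell after centring. BBC3, the pro-death protein PUMA, rose by 1.32 (SE 0.26) and BCL2L2, a protective member, by 0.72, while BOK (0.63) and MCL1 (0.47) lost their calls on centring. Of 13 death receptor genes 4 rose and 0 fell (2 after centring), with TNFRSF10B, a receptor for TRAIL, at 114 CPM with both drugs against 55.8 CPM in the group labelled GW3965, a difference of 1.03 (SE 0.13).

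Genes of hepatocyte identity fell. Of 19 secreted hepatocyte proteins 13 fell and 0 rose (median -0.57, 15 after centring). ALB, serum albumin, was at 1658 CPM with both drugs against 2351 CPM in the group labelled GW3965, a difference of -0.50 (SE 0.14, approximate test, adjusted p = 0.00333). KNG1, the kininogen, fell by 1.67, APOH by 1.45, APOC3 by 1.40 and APOA1, the main protein of high density lipoprotein, by 1.12, the last to 500 CPM against 1087 CPM. Of 12 acute-phase genes 6 fell and 0 rose, led after HP by the 3 fibrinogen chains FGA (-1.59), FGG (-1.36) and FGB (-1.03). FGA was at 392 CPM with both drugs against 1183 CPM in the group labelled GW3965 (SE 0.13, approximate test, adjusted p = 2.7e-29). Of 20 coagulation and complement genes 9 fell and 0 rose, among them F13B (-1.78), SERPIND1 (-1.61), SERPINF2 (-1.34) and C8A (-1.17).

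Part of this gap lay on the side of the group labelled GW3965. Against DMSO, the coagulation and complement list had a median of -0.05 with both drugs and 0.33 in the group labelled GW3965 in the authors' deposited tables, and the secreted proteins -0.53 with both drugs and 0.32 in the group labelled GW3965. For APOC3 the authors' deposited tables gave -0.20 with both drugs and 1.20 in the group labelled GW3965. For AFP, the fetal albumin, the authors' deposited tables gave -1.16 with both drugs and -0.13 in the group labelled GW3965, and the difference was -1.02 (SE 0.17).

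Regulators of the hepatocyte programme moved in both directions. Of 18 transcription factors 9 fell and 3 rose. NR1H4, the bile acid receptor FXR, was at 3.09 CPM with both drugs against 8.60 CPM in the group labelled GW3965, a difference of -1.48 (SE 0.26, approximate test, adjusted p = 3.53e-07). ONECUT1 fell by 1.33, while CEBPB, also an integrated stress response gene, rose by 1.08. HNF4A (-0.14), a central factor of the hepatocyte state, was not called. In bile acid metabolism 4 of 11 genes fell and 1 rose: AKR1D1 (-1.28), CYP27A1 (-0.86), the phospholipid exporter ABCB4 (-0.82) and HSD3B7 (-0.75, named after its value was seen) fell and NR0B2, the repressor SHP, rose by 0.91. CYP3A7, a fetal cytochrome P450 with close copies, fell by 1.58, and the drug exporter ABCB1 rose by 0.85. Of 11 urea cycle and amino acid catabolism genes 6 fell and 1 rose, among them ARG1, CPS1 (-1.35) and HGD (-1.17). All 10 hepatocyte markers were above the expression minimum. Of the markers of other cell types, 2 of 7 immune, 3 of 7 fibroblast and 3 of 6 cholangiocyte genes and no matched endothelial gene reached it. Among these LYZ (-1.16), COL1A2 (-0.64) and PDGFRB (-0.64) fell, and KRT19 (0.74) and CD68 (0.57) rose, CD68 not after centring.

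**Figure D2:**
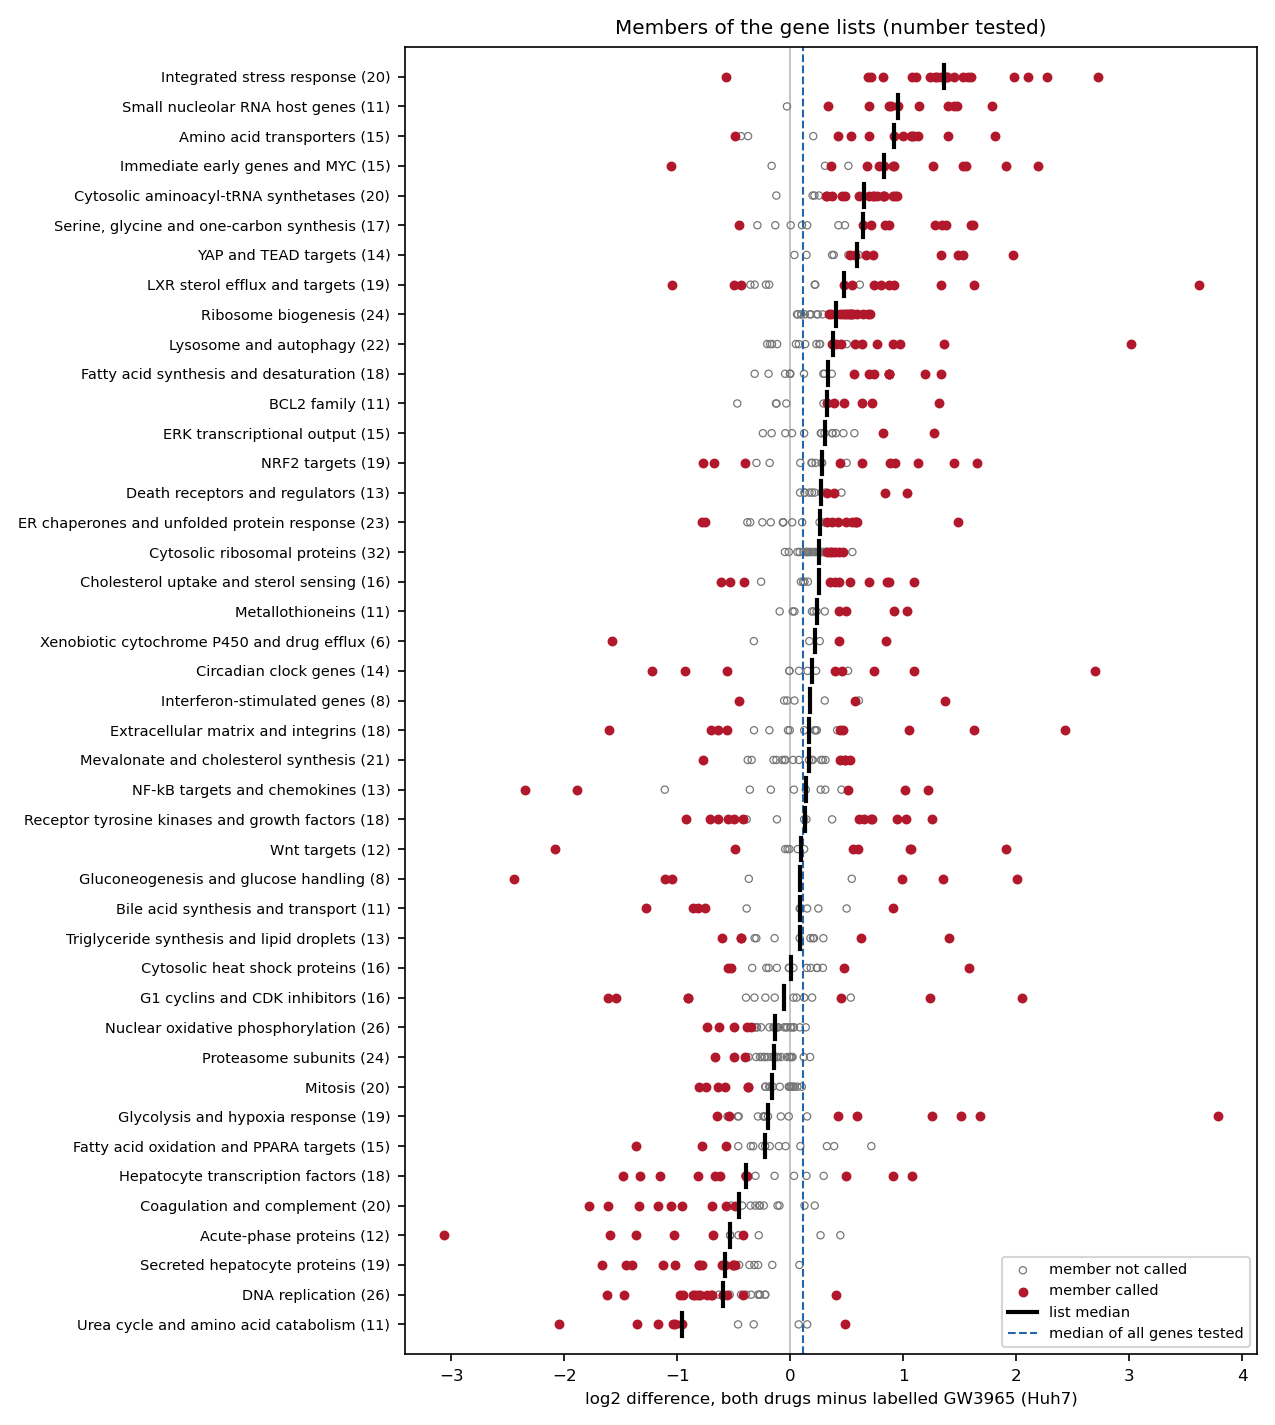
Difference (log2, both drugs minus labelled GW3965) of every tested member of the gene lists with at least 5 tested members, 1 row a list with its number tested in brackets; filled points passed the approximate test, open points did not, black bars are list medians and the dashed line is the median of all genes tested, 0.11. The integrated stress response lies farthest right with a median of 1.36 and 1 member below 0, and urea cycle and DNA replication genes lie farthest left with medians of -0.96 and -0.60.

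Of 13 NF-kB targets and chemokines 3 rose and 2 fell, beside 20.4% and 9.61% of all genes tested. CXCL1, a neutrophil attractant, was at 0.94 CPM with both drugs against 4.78 CPM in the group labelled GW3965, a difference of -2.35 (SE 0.42, approximate test, adjusted p = 6.67e-07). CXCL6 fell by 1.89 (SE 0.62) but not at an adjusted p under 0.01. CCL20, which attracts CCR6-bearing cells, was at -1.11 and was not called (SE 0.49, approximate test, adjusted p = 0.0707), though it passed after centring (-1.22, adjusted p = 0.0474). RELB and NFKB2, subunits of the noncanonical pathway, rose by 1.22 and 1.02, and ICAM1, named after its value was seen, by 0.51. CXCL8 at 0.03 was not called, nor were CXCL5 at -0.17 and the subunit NFKB1 at 0.14, named after their values were seen. The promoters of CXCL1 and CXCL6 are shown because both held an NF-kB element (GGG, any 2 bases, TTTCC; searched on either strand) within 250 bases before the start, in both on the strand shown. That motif was present in 2.01% of promoters matched to tested genes. Only the 2 called falls of the list were looked at, not its rises, so the motif cannot be tied to the direction. Motifs searched in other lists are not reported here. They lie at chr4:73869143-73869392 and chr4:73836428-73836677 (GRCh38.p14, RefSeq, plus strand), with the element in capitals.
CXCL1: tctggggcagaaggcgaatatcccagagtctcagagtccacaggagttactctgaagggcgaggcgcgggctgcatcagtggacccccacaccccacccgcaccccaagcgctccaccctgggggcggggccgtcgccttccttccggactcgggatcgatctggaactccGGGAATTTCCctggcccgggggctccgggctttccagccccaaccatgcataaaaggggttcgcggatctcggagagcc
CXCL6: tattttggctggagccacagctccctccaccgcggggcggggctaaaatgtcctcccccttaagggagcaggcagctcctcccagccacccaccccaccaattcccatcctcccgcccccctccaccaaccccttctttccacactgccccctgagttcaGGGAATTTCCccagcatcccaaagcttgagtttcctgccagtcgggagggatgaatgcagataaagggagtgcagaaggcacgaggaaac
The element began 79 bases before the start in CXCL1 and 90 in CXCL6. Among 8 interferon-stimulated genes OAS3 (1.37) and ISG15 (0.58) rose and STAT2 (-0.45) fell. These were shares of 25% and 12.5%, beside 20.4% and 9.61% of all genes tested.

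Sugar metabolism changed in single genes rather than along the pathway. Of 19 glycolysis and hypoxia genes 6 rose and 2 fell, with a median of -0.20. Besides HKDC1, ENO2 rose by 1.68, the hexokinase HK1 by 1.51 and VEGFA by 1.26, while GAPDH at -0.20 and LDHA at -0.55 were not called. SLC2A2, the hepatocyte glucose transporter GLUT2, was at 0.84 CPM with both drugs against 4.55 CPM in the group labelled GW3965, a difference of -2.45 (SE 0.26, approximate test, adjusted p = 2.43e-18). TXNIP, which restrains glucose uptake, rose by 2.01 (SE 0.31), to 9.54 CPM against 2.37 CPM. That difference came from a low level in the group labelled GW3965: in the authors' deposited tables TXNIP stood at -0.18 with both drugs and -2.19 in the group labelled GW3965. IRS2, an insulin receptor substrate, rose by 1.36 and PKLR, the liver pyruvate kinase, fell by 1.10.

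Of 14 YAP and TEAD targets 8 rose and 0 fell (median 0.59), and 6 were not called. MYOF, a membrane repair protein, was at 49.7 CPM with both drugs against 12.7 CPM in the group labelled GW3965, a difference of 1.97 (SE 0.32, approximate test, adjusted p = 3.98e-08), and NUAK2, a kinase, rose by 1.33. ANKRD1 rose by 1.49 (SE 0.56) but lost its call after centring (1.38, approximate test, adjusted p = 0.0502). Of 18 matrix and integrin genes 5 rose and 4 fell. LAMA3, a laminin chain, rose by 1.63 and the integrin ITGAV by 1.06, while the protease MMP11 fell by 1.60. Of 18 receptor kinase and growth factor genes 7 rose and 6 fell, with IGF1R at 1.03 and HBEGF at 0.95 among the rises and IGF2 at -0.93 among the falls.

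The Hep3B contrasts share no library with the Huh7 comparison, but they measure another cell line. Both contain the Hep3B libraries given both drugs, so they are not independent of each other. Over 11116 genes measured in both lines, the Huh7 difference correlated with Hep3B both drugs minus sorafenib at a Pearson r of 0.54 and a Spearman rho of 0.51, and with Hep3B both drugs minus GW3965 at 0.56 and 0.56. These are correlations across genes, which are not independent, between lines handled in the same study. Of 261 genes called at least 2-fold higher in Huh7, 223 (85.4%) were positive in Hep3B both drugs minus sorafenib, where 54.3% of all genes were, and 42 were at least 2-fold higher there. Of 148 called at least 2-fold lower, 126 (85.1%) were negative in Hep3B both drugs minus sorafenib, where 45.7% of all genes were, and 48 were at least 2-fold lower. Against Hep3B both drugs minus GW3965 the counts were 221 of 261 positive and 119 of 148 negative, with 130 and 74 at least 2-fold. There 49.0% of all genes were positive and 51.0% negative. Of all genes, 6.12% were at least 2-fold higher and 6.66% at least 2-fold lower in that contrast. In Hep3B both drugs minus sorafenib these 2-fold shares were 1.31% and 1.48%, so the 2-fold counts of the contrasts are not directly comparable.

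Which Hep3B contrast lay closer depended on the gene group. The LXR list had a median of 0.48 in Huh7, 0.28 in Hep3B both drugs minus sorafenib and -0.49 in Hep3B both drugs minus GW3965, fatty acid synthesis 0.34, 0.58 and -0.84 in that order, and ERK output 0.30, 0.03 and -1.14. ABCG1 differed by 3.62 in Huh7, 5.86 in Hep3B both drugs minus sorafenib and 0.47 in Hep3B both drugs minus GW3965. FASN was at 1.34, 1.61 and -1.61 in the same order, and DUSP6 at 0.02, -0.15 and -2.88. For the integrated stress response the list median was 1.36 in Huh7, 0.39 in Hep3B both drugs minus sorafenib and 2.07 in Hep3B both drugs minus GW3965. CHAC1 was at 1.39 in Huh7, -0.11 in Hep3B both drugs minus sorafenib and 2.60 in Hep3B both drugs minus GW3965.

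**Figure D3:**
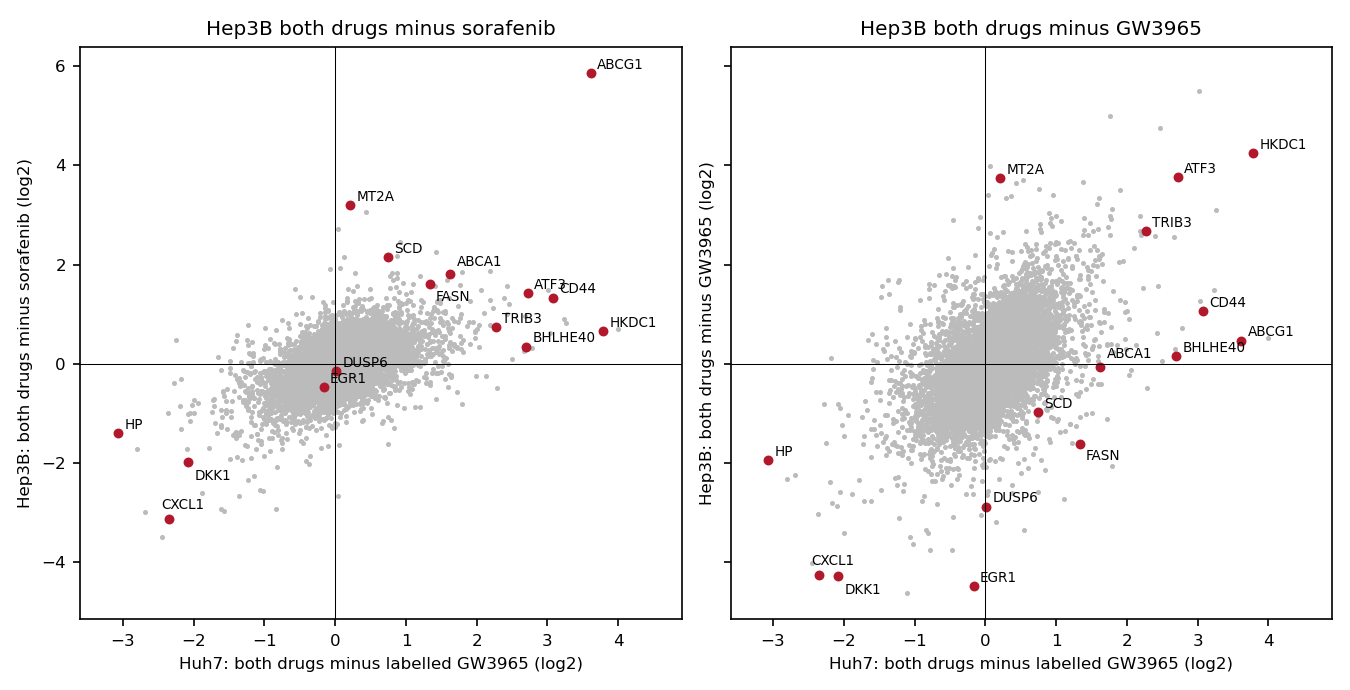
Each grey point is a gene, with the Huh7 difference (both drugs minus labelled GW3965, log2) on the horizontal axis and Hep3B both drugs minus sorafenib (left) or minus GW3965 (right) on the vertical axis; selected genes are named. ABCG1, ABCA1, FASN and SCD lie at 1.61 or above in the left panel and at 0.47 or below in the right, DUSP6 and EGR1 lie near 0 in the left and at -2.88 and -4.49 in the right, and ATF3 and HKDC1 lie higher in the right panel.

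The Huh7 difference was tested directly against each Hep3B contrast. With both drugs minus sorafenib on the Hep3B side, the labelled single drug differs as well as the line. Their parts in that test cannot be told apart. Against Hep3B both drugs minus sorafenib, 708 of 11483 genes (6.17%) were higher and 306 (2.66%) lower in Huh7, or 480 and 402 after centring. Of 19 integrated stress response genes 12 were higher in Huh7 and 1 lower by this test, and TRIB3 stood 1.53 higher (SE 0.30, approximate test, adjusted p = 6.64e-05), CHAC1 1.49, ATF3 1.30, DDIT3 1.25 and ASNS 1.22. In cholesterol synthesis 10 of 21 genes were lower in Huh7 and 0 higher. SREBF1 was 1.30 lower in Huh7 (SE 0.19), SCD 1.41 lower, ABCG1 2.25 lower and MT2A 2.99 lower, at adjusted p of 1.46e-05 or below by the approximate test. For ABCA1, FASN, DUSP6, SPRY4, EGR1, CCND1, CXCL1, CCL20, MKI67, HMGCS1 and ALB the difference between these contrasts was not called. The intervals of these genes were not equally narrow: the SE of that difference was 0.23 for CCND1 and 0.51 for EGR1.

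Against the Hep3B contrast with the same labels, both drugs minus GW3965, 2385 of 11446 genes (20.8%) were higher and 1077 (9.41%) lower in Huh7. After centring, 1621 were higher and 1558 lower, so the excess of genes higher in Huh7 rested on the uncentred scale. Without centring, 14 of 15 ERK output genes were higher in Huh7 and 0 lower, as were 16 of 21 cholesterol synthesis genes and 14 of 18 fatty acid synthesis genes. Of 20 integrated stress response genes 1 was higher in Huh7 and 7 were lower. Of 23 genes named in every case, which were chosen with earlier results of these data known, 19 differed between the lines by this test.

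**Figure D4:**
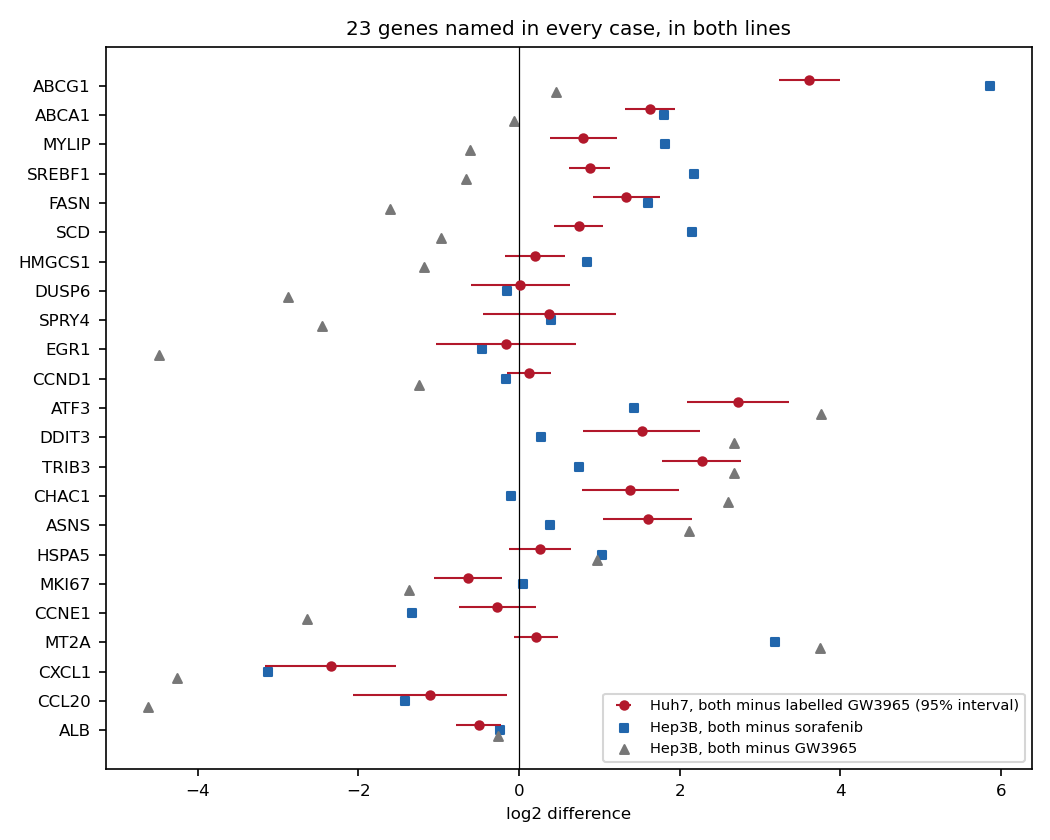
Log2 differences of 23 genes named in every case: Huh7 both drugs minus labelled GW3965 with 95% intervals (circles), Hep3B both drugs minus sorafenib (squares) and Hep3B both drugs minus GW3965 (triangles). From ABCG1 to CCND1 the circles lie nearer the squares than the triangles, the triangles of EGR1 and DUSP6 lie at -4.49 and -2.88, and for CHAC1, ASNS and DDIT3 the circles lie between squares and triangles.

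The rises and falls were set beside the group labelled sorafenib, whose contrast with DMSO shares no library with both drugs minus labelled GW3965. Across the 11116 genes the correlation of these contrasts was a Pearson r of 0.32 and a Spearman rho of 0.25. The genes called at least 2-fold higher had a median of 0.14 in the authors' deposited table for the group labelled sorafenib, and those called at least 2-fold lower a median of -0.17. At least 2-fold changes in the same direction there were found for 13 of 261 (4.98%) and 1 of 148 genes (0.676%). Over all 11116 genes, 0.216% were at least 2-fold higher there and 0.027% at least 2-fold lower. Between both drugs and the group labelled GW3965, the genes called at least 2-fold higher and lower had median differences of 1.32 and -1.23.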

How the data were processed

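Poly-A RNA-seq was deposited as 6 tables, 1 for each drug group against DMSO of its line. Per the file headers, the authors gave, per transcript (32321 in all), the mean level as log2 CPM, the log2 fold change, its p-value with an FDR, and how many libraries had a nonzero count. A single representative transcript a gene was used as the authors marked it. The submitters' processing notes list edgeR (version not stated), hg19 and GRCh37. Aligner, counting, strand and normalization: not given in the sources used here.

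Fold changes were subtracted. Each standard error was the fold change over the normal score of its p-value, never below the median of its expression bin (20 bins). Squared errors were added, which counts the DMSO error although it cancels, and the 2-sided normal p was adjusted by Benjamini-Hochberg (Python 3.11.15, NumPy 2.4.6, pandas 2.3.3, SciPy 1.17.1, matplotlib 3.10.9). The test was run on simulated counts with the same spread for all genes, no single-drug effect and t-test p-values. These settings differ from the deposited data, so the run does not measure the error rate of the test here. Named genes were the 12 highest and 12 lowest called at a mean of at least 2 log2 CPM, up to 4 called and 2 uncalled members of a list, and 24 genes named in every case. Some of these genes are not reported here. Members, lists and the test were chosen with earlier results of these data known. Alternatives were the threshold, expression minimum, error terms, centring and transcript choice.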

Additional observations from a re-analysis of the deposited data

Results flagged for a closer look

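For 19 of 23 genes named in every case, the effect of both drugs against the group labelled GW3965 differed between Huh7 and Hep3B by the approximate test of the difference itself. Over all 11446 genes tested, 20.8% were higher and 9.41% lower in Huh7, or 1621 and 1558 genes after centring. The 23 genes were chosen with earlier results of these data known, so their count does not stand for genes at large. The values below are Huh7 minus Hep3B, in log2, with both lines' contrasts taken as labelled.

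The sterol and lipid genes were higher in Huh7 than in Hep3B: ABCG1 by 3.15, ABCA1 by 1.69, MYLIP by 1.42, SREBF1 by 1.54, FASN by 2.95, SCD by 1.72 and HMGCS1 by 1.39. The same was true of the ERK output genes DUSP6 (2.90), SPRY4 (2.83), EGR1 (4.32) and CCND1 (1.37), of CCNE1 (2.37) and of the chemokines CXCL1 (1.92) and CCL20 (3.52). Lower in Huh7 were the stress genes ATF3 (-1.03), DDIT3 (-1.15), CHAC1 (-1.21) and HSPA5 (-0.71) and the metallothionein MT2A (-3.54). The line differences of ATF3 and DDIT3 did not pass at an adjusted p under 0.01. TRIB3, ASNS, MKI67 and ALB did not pass this test. With the DMSO error removed, ASNS (-0.51, adjusted p = 0.0378) and MKI67 (0.73, adjusted p = 0.0103) passed the approximate test, and with centring added, chosen after seeing the data, TRIB3 did too (-0.52, adjusted p = 0.0213). The Huh7 side rests on a group whose LXR and ERK genes go against its label, and the part of the label in these line differences was not tested.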

How the results depend on the processing

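No paired analysis was possible because the tables hold no values of single libraries, and for the same reason no library could be left out. No called gene changed sign on centring. Uncalled genes with a positive difference below the median of 0.11, such as DUSP6 at 0.02, turned negative. Centring also turned the balance of rises and falls. At an adjusted p under 0.01, 1522 genes rose and 691 fell with both drugs, 1545 and 668 were higher and lower in Huh7 against Hep3B both drugs minus GW3965, and 317 and 132 against Hep3B both drugs minus sorafenib. With the DMSO error removed, assuming equal spread per library, these counts were 3916 and 1923, 3685 and 1959, and 2093 and 1041. Centring on the median difference gave 1437 rises and 1663 falls. For the line differences it gave 1621 higher and 1558 lower against both drugs minus GW3965, and 480 and 402 against both drugs minus sorafenib. Centring with the DMSO error removed, chosen after seeing the data, gave 2601 rises and 2854 falls. In Huh7, 2738 genes were then higher and 2695 lower against both drugs minus GW3965, and 1545 and 1453 against both drugs minus sorafenib. The expression minimum, the floor on the standard error and the choice of transcript kept all 6 counts within 1.5 times. Of 199 named genes, 21 lost their call at 0.01, 13 on centring, 7 with no expression minimum and 1 over all transcripts, and CCL20 gained one on centring. Counts of calls within lists moved by over 1.5 times in 14 cases on centring, 18 at 0.01 and 18 with the DMSO error removed. The unknown depth limits what can be said of genes at a few CPM.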

Other observations

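Of 11 host genes of small nucleolar RNAs 10 rose and 0 fell (median 0.96), led by SNHG12 (1.79), ZNFX1-AS1 (1.47), GAS5 (1.45) and EPB41L4A-AS1 (1.40). GAS5 was at 80.7 CPM with both drugs against 29.5 CPM in the group labelled GW3965. Some of these transcripts overlap other genes, and the sources used here do not say how reads were assigned, so their values are uncertain. Of 24 ribosome biogenesis genes 14 rose and 0 fell (median 0.40; 10 rose after centring), among them WDR43 (0.71), RRP12 (0.69), RRP9 (0.65) and BOP1 (0.60). In the authors' deposited tables the median of that list against DMSO was -0.09 with both drugs and -0.50 in the group labelled GW3965. Of 32 ribosomal protein genes 6 rose and 0 fell, a share no higher than that over all genes, and 1 rose after centring.

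Of 22 lysosome and autophagy genes 11 rose and 0 fell (7 after centring). LAMP3, a stress-induced lysosomal protein, was at 18.4 CPM with both drugs against 2.28 CPM in the group labelled GW3965, a difference of 3.01 (SE 0.62, approximate test, adjusted p = 2.34e-05). SQSTM1, an autophagy receptor, rose by 1.36, NEU1 by 0.98 and MAP1LC3B by 0.91. Of 24 proteasome subunits 3 fell (12.5%, near the 9.61% of all genes tested) and 0 rose, but 7 fell and 0 rose after centring. The 3 falls before centring were PSMD1 by 0.66, PSMB2 by 0.50 and PSMA2 by 0.40. Of 26 nuclear genes of oxidative phosphorylation 5 fell and 0 rose (10 after centring), among them COX7B (-0.74) and NDUFA4 (-0.63). Of 14 clock genes 5 rose and 3 fell: NR1D2 rose by 1.10, and DBP and KLF9 fell by 1.22 and 0.93. In Wnt signalling 5 of 12 targets rose and 2 fell, with NKD1 at 1.07 and SP5 at 1.06 beside the fall of DKK1.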
